A study of Caenorhabditis elegans with 2 samples.

Results

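The C. elegans genes egl-27, din-1 and somi-1 were examined in ChIP-seq of NHR-20, a nuclear hormone receptor, carrying a GFP tag. They were chosen by the number of thresholded ChIP-seq summits in their promoter windows, a measured value, so those counts are a description and were not tested. They are 3 of 19973 protein-coding genes. A promoter window ran from 1000 bp upstream to 300 bp downstream of each annotated coding transcript start. The 3 genes had 6, 4 and 4 such summits. Only C34B4.2 and srh-2 also reached 4, so that 5 genes (0.025% of all) had 4 or more, and the count just below, 3 summits, was found at 46 genes. A promoter summit of any kind was present at 20.6% of protein-coding genes.

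The material was whole L1 larvae of hermaphrodites of strain OP515, of genotype unc-119(tm4063) III; wgIs515, collected 6 hours after synchronization as starved L1 larvae. The integrated transgene wgIs515 expresses NHR-20 with a C-terminal GFP-FLAG tag, and chromatin was precipitated with an antibody against GFP. There was 1 group of 2 biological replicates and no comparison group, so nothing is set against untagged animals, and the lists alone do not tell receptor binding from other sources of signal. All cells of the larva were pooled, so a weak summit can reflect weak occupancy in many cells or strong occupancy in few, and these cannot be told apart.

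EGL-27 is a worm homolog of the MTA proteins, which are subunits of nucleosome remodelling and deacetylase complexes, and it is known from work on cell migration, cell fate and stress resistance. DIN-1 is the worm homolog of the SHARP (SPEN) corepressor. It binds the nuclear receptor DAF-12 when the receptor has no hormone, and the pair promotes entry into the dauer stage, so DIN-1 is the member with a direct link to nuclear receptor function. SOMI-1 is a C2H2 zinc finger protein that was identified as required for the effects of excess mir-84, a microRNA of the let-7 family, on developmental timing. Its grouping with cofactors is a working label, which these lists cannot check. Many worm transcripts are trans-spliced, so an annotated 5′ end often lies downstream of the site where transcription begins.

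The authors deposited 30000 pooled candidate regions, of which 6423 passed their threshold (21.4%). These were the 6423 candidates of highest pooled signal, from 85.96 to 2711, with a median of 169.5. The signal value is the authors' own measure of each region against a control. It is comparable within a list, and ranks are used between lists, with rank 1 the strongest. Read totals are not in these lists, so depth is unknown. In each gene and the 3 kb upstream of its outermost start, called its locus here, 41 pooled candidates were found at the 3 genes together. Of these, 20 were thresholded, 8 at egl-27, 7 at din-1 and 5 at somi-1, and 14 of the 20 lay in promoter windows. Of all 6423 thresholded summits, 3609 lay in a promoter window of some protein-coding gene, and the 3 genes were chosen for such summits. A locus count of 5 or more was found at 0.396% of protein-coding genes, and the highest count of any gene was 11. Summits were numbered from the 5′ end of each gene.

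Sequences of 201 bases centred on 8 of the 20 summits follow, from the WBcel235 (ce11) genome on the strand of the gene. Capitals mark matches on either strand to any of 7 motifs. AGGTCA is the core element of many nuclear receptors. AGTGCA and the related AGGACA are core elements of DAF-12. TGATAA is a form of the GATA factor motif, CACGTG the E-box, and GTAAACA the forkhead motif. GAGAGA is a simple repeat that can overlap itself. Overlapping matches run together as 1 stretch of capitals. The first 3 are the strongest summit of each gene. Summit 6 of egl-27 lies at chrII:6842707-6842907 (plus strand), summit 1 of din-1 at chrII:11635859-11636059 (minus strand) and summit 4 of somi-1 at chrV:13391075-13391275 (minus strand).
egl-27 summit 6: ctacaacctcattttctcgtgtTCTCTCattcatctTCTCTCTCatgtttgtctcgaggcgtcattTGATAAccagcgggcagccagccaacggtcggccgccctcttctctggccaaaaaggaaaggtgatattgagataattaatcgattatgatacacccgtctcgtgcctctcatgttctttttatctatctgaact
din-1 summit 1: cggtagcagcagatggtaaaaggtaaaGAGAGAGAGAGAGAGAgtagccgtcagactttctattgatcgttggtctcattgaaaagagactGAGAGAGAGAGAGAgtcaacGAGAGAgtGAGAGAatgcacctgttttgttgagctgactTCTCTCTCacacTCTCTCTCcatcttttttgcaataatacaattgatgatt
somi-1 summit 4: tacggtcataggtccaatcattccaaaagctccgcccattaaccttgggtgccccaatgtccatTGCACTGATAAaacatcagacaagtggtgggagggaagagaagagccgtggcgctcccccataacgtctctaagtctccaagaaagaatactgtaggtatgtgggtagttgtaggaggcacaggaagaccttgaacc

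The next 3 are the summits with a match to AGGTCA, the core element that many nuclear receptors recognise. They lie at chrII:6835654-6835854 and chrII:6836983-6837183 in egl-27 (plus strand) and at chrV:13389497-13389697 in somi-1 (minus strand).
egl-27 summit 2: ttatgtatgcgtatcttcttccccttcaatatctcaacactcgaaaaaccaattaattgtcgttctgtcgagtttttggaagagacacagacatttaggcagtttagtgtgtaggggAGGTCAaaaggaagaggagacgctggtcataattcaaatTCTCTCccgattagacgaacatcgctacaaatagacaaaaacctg
egl-27 summit 3: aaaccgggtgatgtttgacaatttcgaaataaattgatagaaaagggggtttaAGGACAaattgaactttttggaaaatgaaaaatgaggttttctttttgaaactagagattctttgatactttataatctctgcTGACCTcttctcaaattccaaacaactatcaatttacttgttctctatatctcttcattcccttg
somi-1 summit 5: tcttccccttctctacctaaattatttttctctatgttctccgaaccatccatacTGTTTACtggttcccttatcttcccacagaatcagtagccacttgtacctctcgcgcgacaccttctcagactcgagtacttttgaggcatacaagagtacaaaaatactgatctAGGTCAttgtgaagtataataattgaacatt

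The last pair comes from din-1 (minus strand). Summit 2, at chrII:11635102-11635302, spans the start of a snoRNA gene, and summit 7, at chrII:11617841-11618041, holds a DAF-12 core site and a forkhead match.
din-1 summit 2: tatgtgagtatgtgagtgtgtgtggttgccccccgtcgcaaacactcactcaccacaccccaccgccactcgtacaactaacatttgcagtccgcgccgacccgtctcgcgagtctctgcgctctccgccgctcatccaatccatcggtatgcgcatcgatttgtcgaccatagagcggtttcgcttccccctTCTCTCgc
din-1 summit 7: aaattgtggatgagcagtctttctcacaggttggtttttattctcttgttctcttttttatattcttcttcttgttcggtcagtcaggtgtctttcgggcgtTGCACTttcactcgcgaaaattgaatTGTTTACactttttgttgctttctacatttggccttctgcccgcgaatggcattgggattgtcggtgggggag

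egl-27 (WBGene00001194) occupies chromosome II from 6835008 to 6847908 on the plus strand and has 24 annotated coding transcripts with 14 distinct starts. Starts less than 500 bp apart were taken as a group, which gave 6 groups spread over the first 10352 bp of the gene. Each thresholded summit was assigned to its nearest start, and each of the 6 groups received at least 1, though often not close by. Only summits 2 and 5 lay within 300 bp of a start, and summits 3 and 4 lay 847 and 977 bp from theirs. Of the 8, 7 lay in introns with 1 upstream. Gaps between neighbouring summits ran from 205 to 2126 bp, with a median of 1715 bp, so the summits were spread along the gene and not stacked at its 5′ end.

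The strongest egl-27 summit was not one of the 6 promoter summits. Summit 6 (region 6842640 to 6843027, summit at 6842807) had a pooled signal of 633.0 and ranked 368. It ranked 347 in replicate 1 (signal 415.6) and 429 in replicate 2 (signal 226.1). It lay in an intron, 403 bp downstream of the start of transcript C04A2.3c.6, just past the 300 bp limit of the window. Summit 7 lay 205 bp further on at 6843012, in a region (6842640 to 6843035) that spans the region of summit 6. It had a signal of 165.1 and ranked 3313 in the pooled list. Its nearest replicate summit ranked 3167 in replicate 1 but 18505 in replicate 2, where its signal was 13.96. Of the 20 thresholded summits of the 3 genes it was the one on which the replicates differed most in rank. It also lay 228 bp upstream of the snoRNA gene C04A2.16, which is nearer than any egl-27 start.

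Within the promoter windows of egl-27, the strongest was summit 4 (region 6839010 to 6839354), with a signal of 429.2 and rank 836. It ranked 734 in replicate 1 (signal 293.2) and 1083 in replicate 2 (signal 136.0), so both replicates placed it among their strong regions. It lay in an intron 977 bp upstream of the start of C04A2.3c.2 at 6840186, near the outer edge of the window. Summit 1 (region 6833941 to 6834114) was the only one upstream of the whole gene, 969 bp before the outermost start. Its signal was 224.8, its rank 2272, and the replicates ranked it 2317 (signal 144.5) and 2228 (signal 81.54). The start of the ncRNA gene C04A2.13 was closer to it, at 39 bp. Both summits lay just inside the 1000 bp limit of the window.

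The other egl-27 promoter summits were weaker. Summit 2 at 6835754, in an intron 282 bp downstream of the start at 6835472, had a signal of 134.4 and ranked 4099, with ranks of 3910 in replicate 1 and 4341 in replicate 2. The start of the ncRNA gene C04A2.9 was 61 bp from it. Summit 5 at 6841301, 182 bp upstream of the start of C04A2.3c.5, had a signal of 143.5 and ranked 3834, with ranks of 3443 and 5343. Summit 8 at 6845033, 327 bp upstream of the start of C04A2.3c.7, had a signal of 122.6 and ranked 4523, with ranks of 4212 and 5525. These 3 were found in both replicates, with ranks from 3443 to 5525. Summit 3 at 6837083 was the weakest thresholded summit of the 3 genes, with a signal of 93.45 and rank 5927. It ranked 4911 in replicate 2 (signal 40.39) but 7236 in replicate 1 (signal 50.35), outside the 6423 strongest regions there. The strongest egl-27 candidate that missed the threshold had a signal of 67.47 and ranked 7936, 2055 bp upstream of the outermost start.

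**Figure D1:**
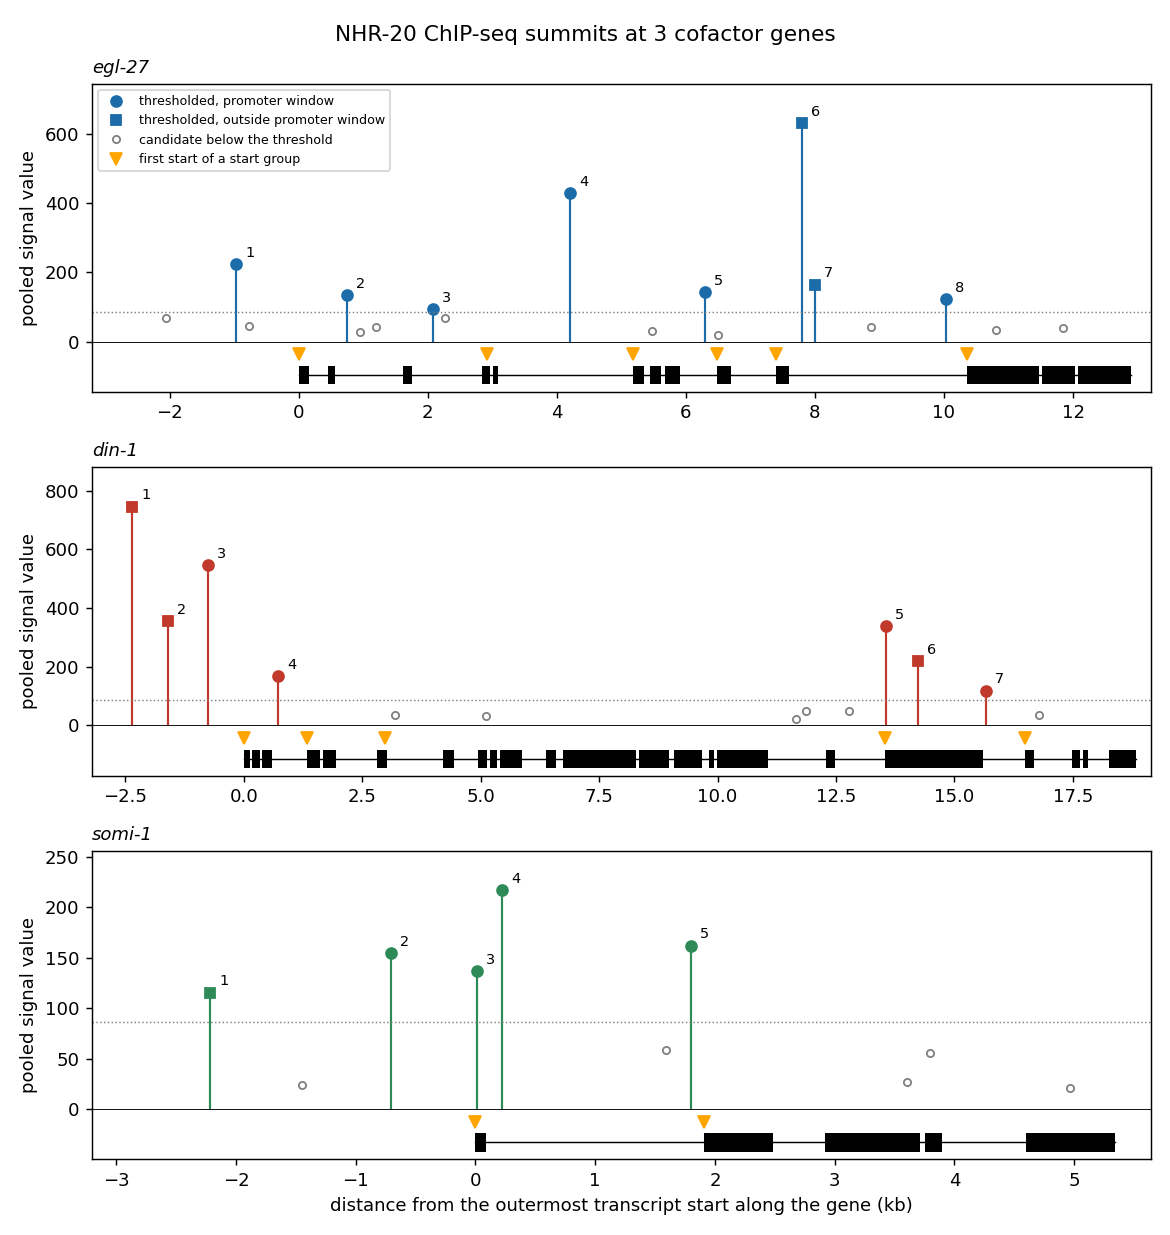
Pooled signal (vertical axis, the authors' signal value) of each summit at egl-27, din-1 and somi-1 against its distance from the outermost transcript start along the gene in kb (horizontal axis). Filled circles are thresholded summits in promoter windows, filled squares thresholded summits outside them, open circles candidates below the threshold, black boxes exons of any transcript, orange triangles the first start of each start group, and the dotted line the lowest thresholded signal of 85.96. The strongest summit lies outside the promoter windows at egl-27 (633.0) and din-1 (745.8), and inside at somi-1 (216.8).

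din-1 (WBGene00008549) lies on chromosome II from 11614770 to 11633609 on the minus strand. Its 7 coding transcripts have 6 distinct starts in 5 groups, with the first groups at the 5′ end and 2 groups more than 13 kb further in. Of the 7 thresholded summits, 3 were upstream of the gene and 1 was in an intron, 618 bp upstream of the start of F07A11.6e.1. The remaining 3 were assigned to the internal starts, at 27, 697 and 822 bp from them. A gap of 12840 bp lay between summits 4 and 5, in which 5 candidates stayed below the threshold (signals 21.07 to 49.41). No thresholded summit was nearest to the start of F07A11.6f.1 at 11630637.

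The 3 strongest din-1 summits formed a row upstream of the gene. Summit 1 (region 11635750 to 11636148), 2350 bp upstream of the outermost start, had a signal of 745.8 and ranked 261, the strongest of the 3 loci. It ranked 212 in replicate 1 (signal 494.2) and 339 in replicate 2 (signal 252.7). Summit 3 (region 11634156 to 11634586), 750 bp upstream, had a signal of 546.0 and ranked 516, with ranks of 457 (signal 363.0) and 638 (signal 183.9). It is the strongest din-1 summit inside a promoter window. Between them, summit 2 (region 11634999 to 11635366), 1593 bp upstream, had a signal of 354.1 and ranked 1178, with ranks of 1295 (signal 215.1) and 1079 (signal 136.3). No start of another coding gene was as close to any of the 3, but short non-coding genes were. Summit 1 was 734 bp and summit 2 was 23 bp from the start of the snoRNA gene ZK20.9 (11635225 to 11635327), and summit 3 was 25 bp upstream of the start of the ncRNA gene ZK20.8.

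At the internal starts of din-1, summit 5 (region 11619882 to 11620194) lay 27 bp downstream of the start of F07A11.6d.1, in its 5′ UTR. Its signal was 337.8 and its rank 1271, and the replicates gave ranks of 1211 (signal 224.2) and 1190 (signal 128.3), nearly the same place in both. This summit also fell inside the snoRNA gene F07A11.15, 26 bp from its start, and the ncRNA gene F07A11.10, both on the opposite strand, and these positions cannot be told apart from the din-1 start. Summit 6 (region 11619183 to 11619578), also in the 5′ UTR and 697 bp downstream of the same start, had a signal of 219.8 and ranked 2358, with ranks of 2438 (signal 139.5) and 2174 (signal 83.61). The start of F07A11.10 was closer to it, at 548 bp. Summit 7 at 11617941, in an intron 822 bp upstream of the start of F07A11.6g.1, had a signal of 118.0 and ranked 4705. It ranked 3832 in replicate 1 (signal 95.77) and 10112 in replicate 2 (signal 21.11), so only replicate 1 held it among its 6423 strongest regions. The start of the ncRNA gene F07A11.12 was 188 bp from it. Summit 4 at 11632891, in an intron 618 bp upstream of the start of F07A11.6e.1, had a signal of 166.4 and ranked 3287, with ranks of 3076 (signal 116.3) and 4133 (signal 47.35).

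somi-1 (WBGene00010868) is the smallest of the 3 genes, on chromosome V from 13386058 to 13391395 on the minus strand. It has 4 coding transcripts whose 4 starts form 2 groups, 1905 bp apart. Its 5 thresholded summits were all of moderate strength, with signals from 115.3 to 216.8 and pooled ranks from 2397 to 4790, so none reached the level of the strongest summits of egl-27 or din-1. Only the strongest, summit 4, was above the median signal of the thresholded list.

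Summit 4 of somi-1 (region 13391024 to 13391259) lay in an intron, 218 bp downstream of the start of M04G12.4a.1, and ranked 2397. It ranked 2220 in replicate 1 (signal 148.5) and 2788 in replicate 2 (signal 67.85). Summit 3 at 13391385 lay 8 bp downstream of that start in a coding exon, the only one of the 20 in coding sequence, with a signal of 137.0 and rank 4008. Its ranks were 4351 (signal 84.72) and 3587 (signal 53.98). The 2 summits were 210 bp apart and their regions overlapped. Further upstream, summit 2 at 13392100, 705 bp before the outermost start, had a signal of 154.9 and ranked 3533. The replicates ranked it 4682 (signal 79.5) and 2404 (signal 76.85), higher in replicate 2. Summit 1 at 13393609, 2214 bp upstream and outside the window, had a signal of 115.3 and ranked 4790, with ranks of 3694 (signal 99.16) and 7623 (signal 26.71).

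At the internal starts of somi-1, which give the shorter transcripts M04G12.4b.1 and M04G12.4d.1, a single summit was thresholded. Summit 5 at 13389597, 107 bp upstream, had a signal of 161.9 and ranked 3374, with ranks of 2929 (signal 121.1) and 4824 (signal 41.06). A neighbouring candidate at 13389801 had a signal of 58.88 and ranked 8880, and in both replicates its nearest summit was the one that also matched summit 5. For each thresholded somi-1 summit, no other annotated gene start was closer than the gene's own starts.

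The positions of the 20 thresholded summits were compared across the 3 genes. Relative to the nearest start of the gene, 13 lay upstream and 7 downstream, at a median distance of 657.5 bp, and 6 were within 300 bp of a start. By annotation 6 lay upstream of the gene, 11 in introns, 2 in a 5′ UTR and 1 in a coding exon. Shares of these positions over all thresholded summits were not computed. For each of the 20, the nearest coding start belonged to the member itself, and the closest start of another coding gene was 3091 bp away. A start of a non-coding gene was closer than any member start at 9 of the 20 (45%), against 30.9% of all thresholded summits measured against their nearest coding start. Of the 20 summits 3 (15%) lay within 300 bp of the start of a snoRNA gene, at 23, 26 and 228 bp, against 1.68% of all thresholded summits (108 of 6423). Of all snoRNA genes, 106 of 346 (30.6%) had a thresholded summit within 300 bp of their start. These shares were not tested. The part of these short genes in the member summits was not tested.

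Both replicates were searched for each summit. A counterpart within 200 bp among the 6423 strongest regions was found in replicate 1 for 19 of 20 and in replicate 2 for 19 of 20. All 5 summits of somi-1, 7 of 8 at egl-27 and 6 of 7 at din-1 had one in both replicates, 18 of 20 in all, against 80.5% of all thresholded summits. Summit 7 of egl-27 and summit 1 of somi-1 count here through a second, stronger summit of replicate 2 within 200 bp. For summit 7 of egl-27 this may be the replicate 2 summit matched to summit 6, whose region it overlaps, which was not checked. By the nearest replicate summit alone, the counts in both were 6 of 8 at egl-27, 6 of 7 at din-1 and 4 of 5 at somi-1. The share of all thresholded summits under that rule was not computed. The pooled list was made from these same replicates, so this is not independent evidence of their presence. With all candidates admitted, 20 of 20 had a counterpart in both. Replicate 1 gave the better rank for 13 of the 20. Over all 6326 thresholded summits with a counterpart in both replicates, log2 of the rank in replicate 2 over that in replicate 1 had a median of 0.05 and ran from -0.95 to 1.19 between the 5th and 95th percentiles. Values for summit 7 of egl-27 (2.55) and summit 7 of din-1 (1.40) lay above that range, and that for summit 2 of somi-1 (-0.96) lay just below it.

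**Figure D2:**
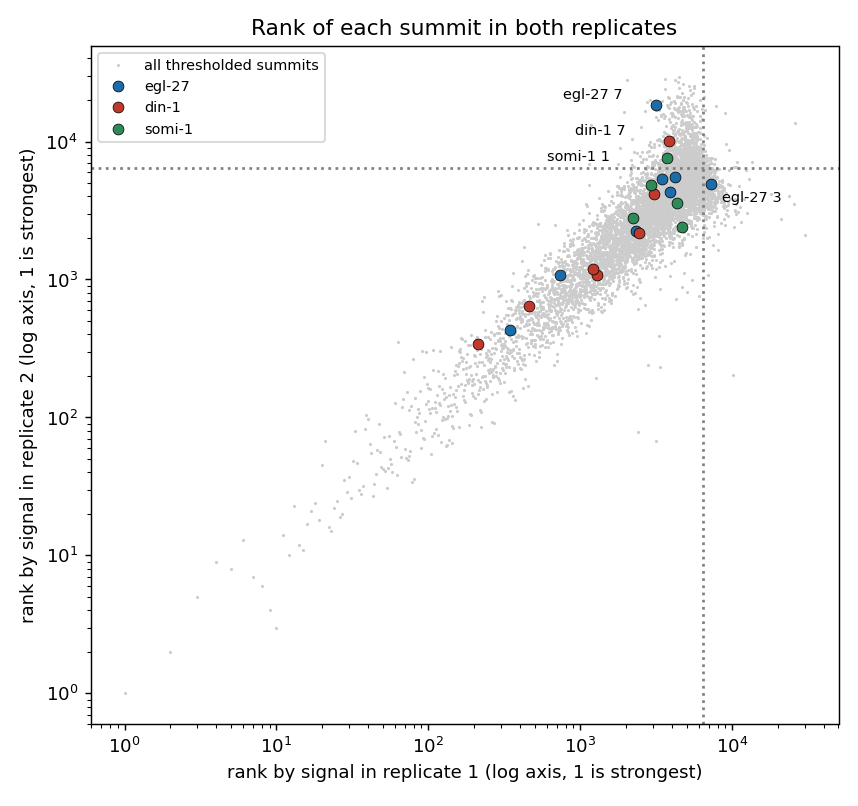
Rank by signal of each thresholded summit in replicate 1 (horizontal, log axis) and replicate 2 (vertical, log axis), taken from the nearest replicate summit within 200 bp. Grey points are all thresholded summits with a counterpart in both replicates, coloured points the summits of the 3 genes, and dotted lines mark rank 6423. Summits 7 of egl-27, 7 of din-1 and 1 of somi-1 lie above the line in replicate 2, and summit 3 of egl-27 lies beyond it in replicate 1.

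Below the threshold the 3 loci held 21 more candidates, 10 at egl-27, 6 at din-1 and 5 at somi-1. All 21 had the same width of 396 bp, a width shared by 12 of the 20 thresholded summits and by 53.4% of the thresholded list. Their signals ran from 18.96 to 67.47, and only 3 of them had a −log10 q-value over 3. Some sat beside a stronger summit, such as the candidate of signal 46.16 at 6834240, downstream of summit 1 of egl-27. The strongest at din-1 had a signal of 49.41 (rank 10265), and the strongest at somi-1 58.88.

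Promoter counts were set beside the length of DNA that was counted. Alternative starts widen the summed window, to 7901 bp at egl-27, 6528 bp at din-1 and 2610 bp at somi-1, against a median of 1301 bp over protein-coding genes. Per kb of window the counts were 0.759 at egl-27, 0.613 at din-1 and 1.53 at somi-1, and 0.128 over the promoter windows of all genes. By that measure 2863 genes stood above egl-27, 3219 above din-1 and 129 above somi-1. Most of those above egl-27 (2578) and din-1 (2907) had 1 promoter summit in a short window. A gene with only 1 could not stand above somi-1, since 1 summit in the 1301 bp of a single start gives 0.769 per kb. The order by count and the order by density were therefore different, with somi-1 the densest of the 3. Among the 40 genes with a window at least as long as that of egl-27 the median was 1 promoter summit, and among the 73 genes with a window at least as long as that of din-1 it was 0. Among the 1144 genes with a window at least as long as that of somi-1 the median was also 0. Of the 10 genes with 14 or more distinct starts, 80.0% had a promoter summit. That share was 40.6% of the 276 genes with at least as many starts as din-1, and 40.3% of the 926 for somi-1. Each of these sets includes the member that it was measured against.

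**Figure D3:**
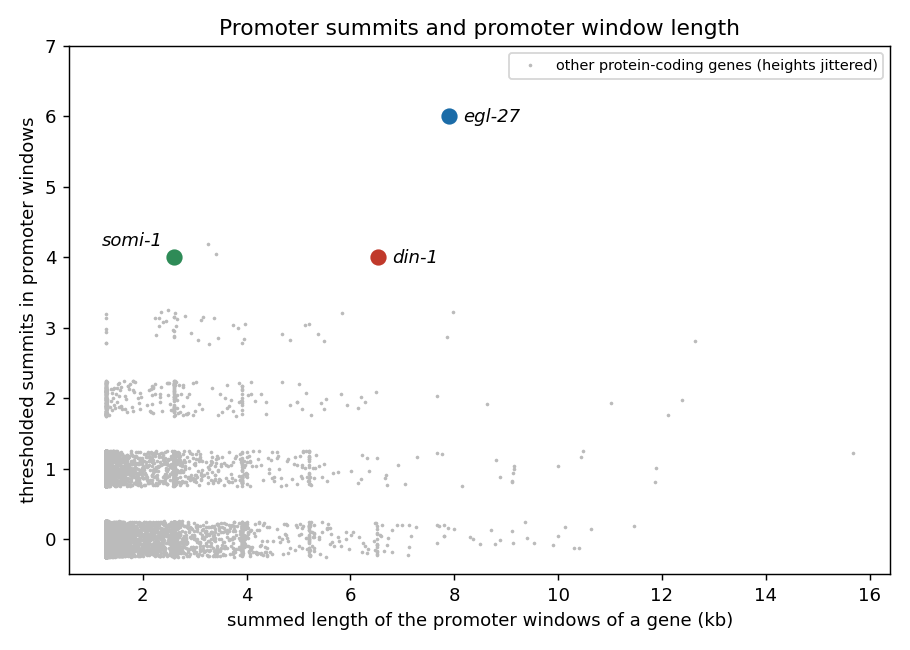
Number of thresholded summits in promoter windows (vertical axis) against the summed length of those windows in kb (horizontal axis) for each protein-coding gene. Coloured points are the 3 genes and grey points all others, with heights jittered for display. egl-27 stands at 6 summits with a window of 7901 bp, din-1 and somi-1 at 4 summits with 6528 and 2610 bp.

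C34B4.2 and srh-2 were the genes most like the 3 by promoter count, each with 4. C34B4.2, on chromosome V, had 4 distinct starts, a window of 3418 bp, a strongest promoter signal of 510.4 and 7 locus summits. The chemoreceptor-type gene srh-2, also on chromosome V, had 7 starts, a window of 3248 bp and 5 locus summits, and its strongest promoter summit (signal 1265.6, rank 46) exceeded every summit of the 3 genes. nhr-20 itself had 0 promoter summits and 1 locus summit (signal 567.9). The animals also carry the transgene that expresses NHR-20, and signal from that copy cannot be told apart from signal at the gene itself.

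The bases around the summits were compared with all summits. The share of G and C in the 201 bases around the 20 summits had a median of 42.8%, with a range from 31.3% to 62.7%, against 41.3% over all thresholded summits and 37.8% over all candidates. GAGAGA was present at 11 of the 20, against 39.6% of all thresholded summits and 22.5% of candidates. It was found at 5 of 8 egl-27 summits, 5 of 7 din-1 summits and 1 of 5 somi-1 summits, and the strongest, summit 1 of din-1 printed above, carries it in several runs. TGATAA was present at 6 of the 20 (30.0%), against 23.4% of all thresholded summits and 23.15% of candidates. By gene, it was at 4 of 8 egl-27 summits (5 to 8, the downstream ones), 2 of 5 somi-1 summits and 0 of 7 din-1 summits.

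AGGTCA occurred at 3 of the 20 summits, the 3 printed above, against 8.41% of all thresholded summits and 6.84% of candidates. The DAF-12 core site AGTGCA occurred at 3 of 7 din-1 summits (5, 6 and 7, all at the internal starts), at 1 of 5 somi-1 summits and at 0 of 8 egl-27 summits, against 9.31% of all thresholded summits. AGGACA occurred at summit 3 of egl-27 alone, where AGGTCA is also present, and in 8.10% of all thresholded summits. CACGTG occurred at summit 8 of egl-27 alone, against 11.6%. GTAAACA occurred at summit 7 of din-1 and summit 5 of somi-1, against 5.04%. Summit 4 of din-1 and summits 1 and 2 of somi-1 held none of the 7 motifs. With 20 windows these shares are descriptions, and no match was tested as a binding site.

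Other genes of the same pathways were taken from 6 lists. Of 60 listed genes other than the 3, 30 (50.0%) had a promoter summit, against 20.6% of all protein-coding genes. More than 1 was found at 5 of the 60, against 375 of all 19973 protein-coding genes. Of those 60, 39 had a locus summit (65.0%), against 31.9% of all genes. The lists were drawn up with earlier results known, so these shares are descriptive.

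In the list of MTA, NuRD and MEC complex genes, 5 of 9 besides egl-27 (55.6%) had a promoter summit, 1 each, against 20.6% of all protein-coding genes. The strongest promoter summits of the list were at lin-53, which encodes a histone-binding WD40 protein (signal 793.7, rank 217), egl-27 itself (429.2, rank 836) and lin-40, the paralog of egl-27 (383.4, rank 1015). rba-1, a relative of lin-53, had that same rank 217 summit in its locus but none in its promoter window. No other gene of this list had more than 2 locus summits, where egl-27 had 8 in a locus of 15901 bp. Of these 8, 6 are the promoter summits that egl-27 was picked for, so its lead is not a separate result.

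In the list of DAF-12 hormone pathway genes, 1 of 9 besides din-1 had a promoter summit (11.1%), against 20.6% of all protein-coding genes, a difference that was not tested. That gene was emb-8, the cytochrome P450 reductase (signal 213.1, rank 2446). daf-12, the receptor that DIN-1 binds, had 9 distinct starts, 0 promoter summits and 3 locus summits, the strongest with a signal of 510.5. ncr-1, a sterol transporter of the Niemann-Pick type, had 0 promoter summits and 2 locus summits. The median of the 9 was 0 for promoter and locus summits alike. din-1 had 7 locus summits in a locus of 21840 bp, and the next highest gene was daf-12. Of these 7, 4 are the promoter summits that din-1 was picked for, so its lead is not a separate result.

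Among somi-1 and genes of the let-7 family timing pathway, 4 of 8 besides somi-1 (50.0%) had a promoter summit, against 20.6% of all protein-coding genes. The strongest were at lin-28, an RNA-binding regulator of let-7 (2 promoter summits, signal 570.5, rank 463), lin-14, a timing factor of early larvae (1 promoter summit, signal 393.0, rank 970), and nhr-25, an Ftz-F1-type receptor (2 promoter summits, signal 275.7, rank 1697). lin-14 had 8 locus summits, more than somi-1 with 5, so by locus count somi-1 was not the highest of its list.

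The remaining lists held further chromatin regulators. Of 12 SWI/SNF and other remodeller genes matched by symbol, 9 (75.0%) had a promoter summit, against 20.6% of all protein-coding genes. The strongest were at the polybromo gene pbrm-1 (2 summits, signal 814.5, rank 198), nurf-1, a subunit of the NURF remodeller (3 summits, signal 525.9, rank 558), and swsn-3 (1 summit, signal 412.6, rank 895). Of 13 coactivator and Mediator genes 6 (46.15%) had a promoter summit, with the strongest at cbp-1, the CBP/p300 acetyltransferase (2 summits, signal 1215.1, rank 55), mdt-6 (587.4, rank 428) and pcaf-1 (387.0, rank 996). Of 9 other corepressor genes 5 (55.6%) had one, led by rcor-1, a CoREST homolog (392.8, rank 973), the Groucho homolog unc-37 (158.3, rank 3465) and sin-3 (138.7, rank 3961). Only 5 of all protein-coding genes (0.025%) had 4 or more promoter summits, and none of those 5 was in these lists. The most locus summits in these lists were 6 at let-526 and 4 each at pbrm-1 and lsy-22.

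**Figure D4:**
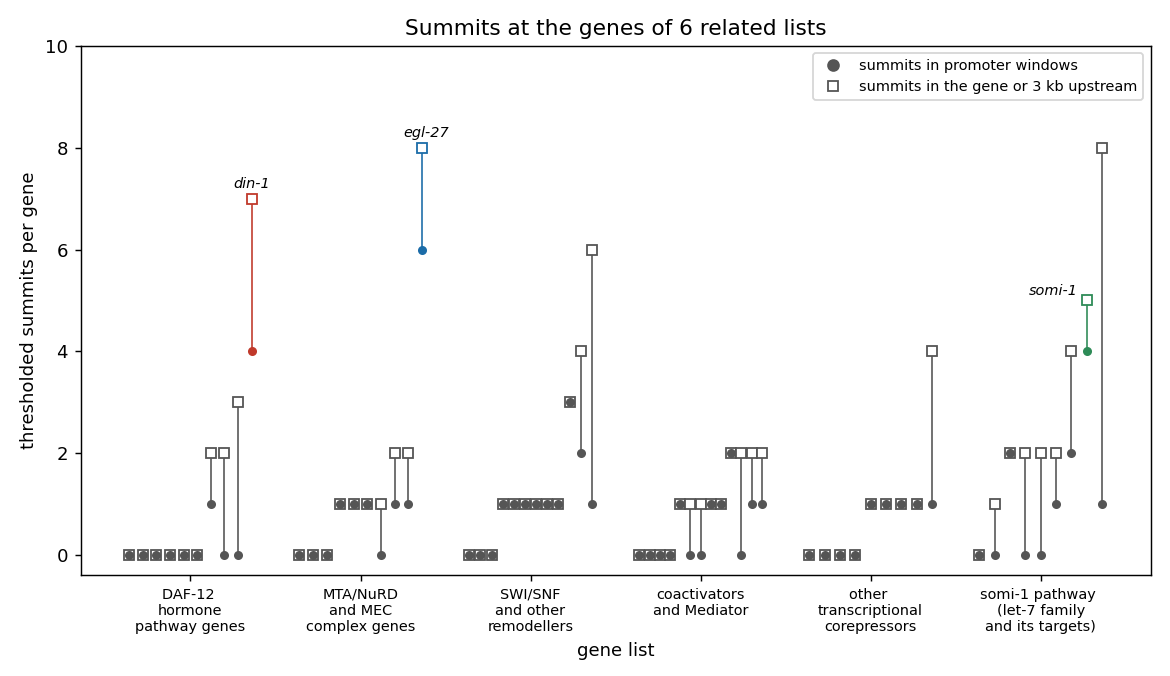
Thresholded summits per gene (vertical axis) for the genes of 6 lists (horizontal axis), with filled circles for promoter windows and open squares for the gene and 3 kb upstream, joined for each gene. The coloured genes are egl-27 (6 and 8), din-1 (4 and 7) and somi-1 (4 and 5), and lin-14 reaches 8 by the wider count.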

How the data were processed

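NHR-20 was precipitated from whole L1 larvae in 2 biological replicates. Per the deposited notes, the authors compared each replicate with a control alignment and supplied narrowPeak lists on ce10 and ce11. Not given in the sources used here: the caller, the aligner and the numeric threshold. Each deposited region has a signal value and a −log10 q-value. The −log10 q-value is the same, 4.18, for every thresholded region, so regions were ranked by signal. The ce11 lists were used, whose coordinates stay within the WBcel235 chromosome lengths, and the ce10 lists were not.

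A summit is the region start plus the summit offset. Gene models were Ensembl release 115, with symbols from RefSeq for 19965 of 19973 genes. RefSeq starts were an alternative. The promoter, locus and 200 bp match rules are those in the report. Motifs were searched in 201 bp. Counting was tested on simulated data. No statistical test was made, since the rule used these values and there is 1 group. Genes named are the 3 members, genes with as many promoter summits, nearer genes, nhr-20 and the 3 strongest of each list. daf-12, ncr-1, rba-1, let-526 and lsy-22 fall outside that rule and were named after their values were seen. Members, lists and motifs were chosen with earlier results of these data known. In the lists, 3 symbols (mdt-1.1, swsn-5, swsn-8) were not matched. Python 3.11.15 and pandas 2.3.3 were used.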

Additional observations from a re-analysis of the deposited data

How the results depend on the processing

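Of 57 recomputed values for the counts of promoter summits, locus summits and matched summits, 49 stayed within 1.5 times the reported value and 8 did not. Some of the 49 could not move. Merging summits within 150 bp changed nothing because the smallest gaps were 205 bp at egl-27, 670 bp at din-1 and 210 bp at somi-1. Leaving out summits nearer to another coding gene changed nothing because no thresholded summit was. Counting distinct intervals changed nothing because all of them differed. With a promoter window from 500 bp upstream to 100 bp downstream, the promoter counts were 2 at egl-27, 1 at din-1 and 2 at somi-1. Among the summits above the median signal, the promoter counts were 2 at egl-27, 2 at din-1 and 1 at somi-1, and the locus counts were 3 at egl-27 and 1 at somi-1. Without 1 replicate at a time, taking the 6423 strongest regions of the other, promoter counts ran from 5 to 6 at egl-27, 3 to 4 at din-1 and 4 at somi-1, and locus counts from 7 to 8, 6 to 7 and 5. RefSeq starts gave 5, 4 and 4 promoter summits. Counting only the nearest replicate summit, an alternative added after the data were seen, lowered the matched counts to 6 of 8 at egl-27 and 4 of 5 at somi-1. No paired analysis was possible because there is a single group. Depth is unknown, so a missing candidate does not show that signal was absent.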
